A study of Mus with 6 samples.

Results

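The Cyp4 genes encode cytochrome P450 enzymes that hydroxylate fatty acids at or next to the far, omega end of the chain. The 10 genes described here were taken by name from the expression table, which holds 48882 genes: 6 of the Cyp4a subfamily (Cyp4a10, Cyp4a12a, Cyp4a12b, Cyp4a14, Cyp4a31 and Cyp4a32), 3 of the Cyp4f subfamily (Cyp4f13, Cyp4f14 and Cyp4f15) and Cyp4v3. They were measured by RNA sequencing in livers of Fabp4 knockout (FABP4-/-) mice and of their wild type littermates, 3 samples in each group. All 6 livers came from mice fed a Lieber-DeCarli liquid diet with ethanol for 8 weeks and given 1 ethanol binge at the end, a regimen that produces alcoholic steatohepatitis, a fatty liver with inflammation. Fabp4 is a fatty acid-binding protein of adipocytes, macrophages and capillary endothelium, and the comparison asks how the Cyp4 transcripts of the ethanol-fed liver differ when it is missing. The labels give no strain, age, sex or details of the knockout allele. Livers of mice without ethanol are not part of this comparison.

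Omega-hydroxylation is a side route of fatty acid breakdown that gains weight when fatty acids are in excess. The hydroxyl group is oxidised by alcohol and aldehyde dehydrogenases to a second carboxyl group, and the dicarboxylic acid formed is shortened in peroxisomes. In mouse liver the Cyp4a genes, above all Cyp4a10 and Cyp4a14, are classic targets of PPARa, the nuclear receptor that fatty acids and fibrate drugs activate, and the Cyp4f enzymes are better known for clearing eicosanoids such as leukotriene B4.

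Levels are given in TPM, a measure of transcript abundance that is corrected for transcript length, so genes can be compared with each other. Differences are knockout minus wild type on the log2(TPM + 1) scale with their standard error (SE), which understates the change of low genes, and were tested with limma over all 14155 genes with a mean of at least 0.5 TPM, with Benjamini-Hochberg adjustment and a threshold of 0.05. The depth of the libraries is unknown, because TPM keeps none. Fabp4 was listed without a value in the 3 knockout livers and at 14.7, 8.15 and 20 TPM in wild type, as the labels have it. In every library Xist had at least 60.4 and at most 85 TPM, whereas 4 Y-linked genes added up to no more than 0.0704 TPM. All 10 hepatocyte markers had a value in every library. Of the 6 libraries, wild type replicate 2 (first principal component, -38.1 against -2.5 to 22.3 elsewhere) and knockout replicate 1 (second component, -30.8 against -5.92 to 21.8 elsewhere) stood apart, so values without them are given below.

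The abundance filter kept 8 of the 10 Cyp4 genes, and the threshold was passed by 0 of these 8 in either direction. The background was as sparse: 0.00706% of all tested genes were called, and the single one was Fabp4. At an unadjusted p under 0.05 there were also 0 of the 8 (limma), against 8.03% of all tested genes. None of the 8 had knockout values wholly above or wholly below the wild type values, against 13.3% of all tested genes. The estimated difference was above 0 for 5 of the 8 (4 after median scaling, where Cyp4f13 was at -0.0026) and below 0 for 3, with a median of 0.08, beside a median of 0.04 over all tested genes. Their adjusted p-values lay between 0.725 and 0.979 (limma).

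**Figure D1:**
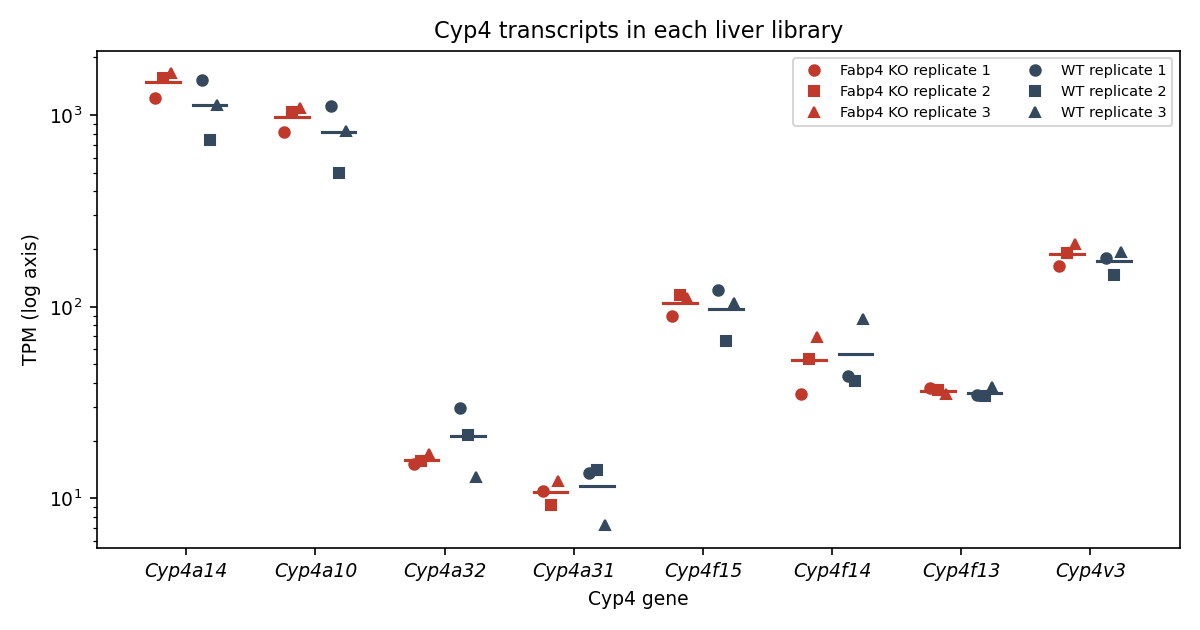
TPM (log axis) of the 8 tested Cyp4 genes in each of 6 liver libraries, Fabp4 knockout in red to the left of wild type in dark blue; symbols mark replicates and bars the group means. Cyp4a14 and Cyp4a10 lie far above the rest, and knockout and wild type values overlap for every gene.

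Cyp4a14 and Cyp4a10 dominated the group in every liver. Cyp4a14 (mm10 chromosome 4, 115486200 to 115496159, minus strand), the member of the subfamily with the highest level, had 1231, 1558 and 1651 TPM in the knockout livers and 1525, 744 and 1132 TPM in wild type. The knockout livers sat in the upper part of the wild type range and above it, with wild type replicate 1 above knockout replicate 1. The means were 1480 ± 221 TPM in the knockout and 1134 ± 390 TPM in wild type (SD, n = 3 each), a log2 difference of 0.43 (SE 0.26; limma adjusted p 0.725). The 95% interval ran from -0.17 to 1.04, which on the same scale spans 0.887-fold to 2.06-fold. The exact two-sided permutation test over the 6 libraries gave p = 0.2, where 0.1 is the smallest value that 3 against 3 allow.

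Cyp4a10 (chromosome 4, 115518287 to 115533649, plus strand), the neighbouring arachidonic and lauric acid hydroxylase gene, had 814, 1040 and 1095 TPM in the knockout and 1118, 500 and 825 TPM in wild type. All 3 knockout values lay inside the wild type range. The means were 983 ± 149 TPM in the knockout and 814 ± 309 TPM in wild type (SD, n = 3 each; log2 0.34, SE 0.28, limma adjusted p 0.804), with a 95% interval from -0.32 to 1.0. Together the pair made up 85.3% to 86.1% of the summed TPM of all 10 genes in the knockout livers and 79.4% to 86.2% in wild type. Among all tested genes, Cyp4a14 ranked 90 by mean level and Cyp4a10 ranked 140.

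The size of the pair's difference depended on which libraries were kept. Wild type replicate 2 had the lowest Cyp4a14 and Cyp4a10 values of the 6 libraries, and the wild type livers alone spanned the whole 2.24-fold range of Cyp4a10. Without that library the log2 difference was 0.16 for Cyp4a14 and 0.02 for Cyp4a10. Without knockout replicate 1 alone it was 0.56 for Cyp4a14 and 0.47 for Cyp4a10. Without both libraries that stood apart it was 0.29 for Cyp4a14 and 0.15 for Cyp4a10.

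**Figure D2:**
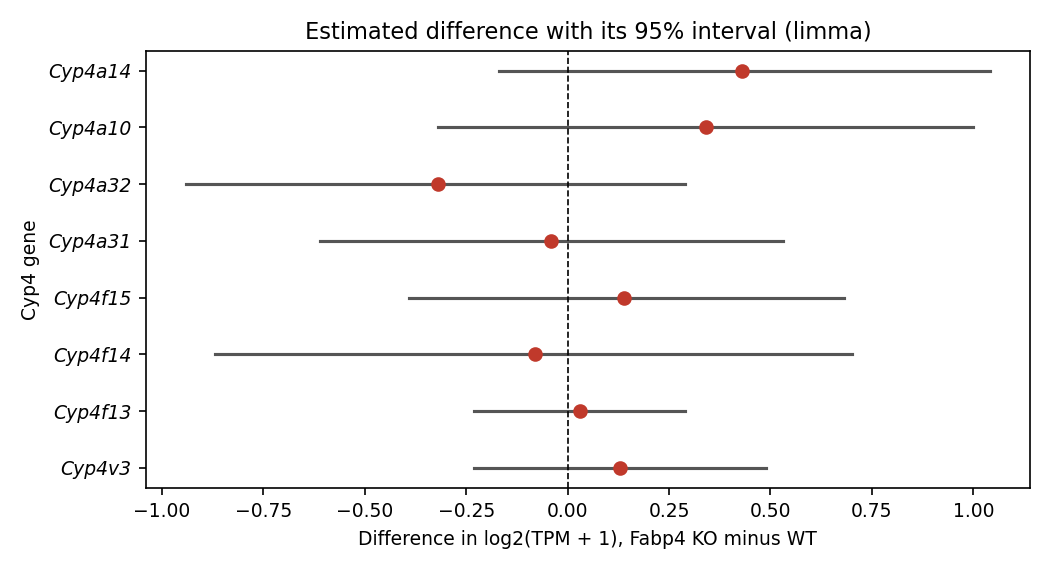
Difference in log2(TPM + 1), Fabp4 knockout minus wild type, for the 8 tested Cyp4 genes (points), with 95% intervals from limma (bars); the dashed line is no difference. Every interval includes 0, and the narrowest is that of Cyp4f13 (-0.23 to 0.29).

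Cyp4a31 and Cyp4a32 lie downstream of Cyp4a10 in the same cluster and were far less abundant. Cyp4a32 (chromosome 4, 115600925 to 115622507) had 15.1, 15.7 and 17 TPM in the knockout livers and 29.6, 21.4 and 12.9 TPM in wild type. The knockout livers were close together, while wild type spread on both sides of them. The log2 difference was -0.32 (SE 0.26; limma adjusted p 0.794), of the opposite sign to Cyp4a14 and Cyp4a10. Cyp4a31 (chromosome 4, 115563626 to 115579015) had 11, 9.2 and 12.4 TPM in the knockout and 13.5, 14.1 and 7.25 TPM in wild type, a log2 difference of -0.04 (SE 0.25) that was above 0 (0.11) without wild type replicate 2. Both genes were lowest in wild type replicate 3, not in replicate 2. Cyp4a10 was 53.8, 66.1 and 64.5 times as high as Cyp4a32 in the knockout and 37.8, 23.4 and 63.9 times in wild type. Cyp4a10, Cyp4a31 and Cyp4a32 are closely related copies. How reads that match more than 1 of them were assigned is not given in the sources used here, so their separate levels are uncertain.

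The remaining pair of the subfamily, Cyp4a12a and Cyp4a12b, encodes the male-predominant arachidonic acid hydroxylase of mouse liver and kidney and was nearly absent. Cyp4a12a (chromosome 4, 115299046 to 115332815) had a value in 1 knockout liver (0.0369 TPM in replicate 2) and in 2 wild type livers (0.119 TPM in replicate 1 and 0.0803 TPM in replicate 3). Cyp4a12b (chromosome 4, 115411624 to 115439034) was listed without a value in all 6. Both were under the abundance filter and were not tested, and reads of these near-identical copies may have been shared. By mean level, 10 other genes of male-biased expression in mouse liver ran from Hsd3b5, at most 0.0613 TPM, to Cyp2d9, at 71 ± 12.7 TPM in the knockout and 123 ± 39.3 TPM in wild type (SD, n = 3 each). The 12 female-biased genes ran from Cyp3a16, at 1.06 ± 1.38 TPM in the knockout and 2.1 ± 1.41 TPM in wild type, to Cyp2a4, at 3910 ± 452 TPM in the knockout and 2070 ± 1040 TPM in wild type (SD, n = 3 each). The male-biased list summed to 156 to 240 TPM in the knockout and 159 to 282 TPM in wild type, and the female-biased list to 5140 to 5914 TPM in the knockout and 2783 to 4608 TPM in wild type. Cyp2a4 was the largest part of the female-biased sum in every liver, at 4128, 3390 and 4212 TPM in the knockout and 2269, 2997 and 945 TPM in wild type. The sum therefore does not stand for the list, in which 7 estimates were above and 5 below 0 (6 and 6 after median scaling). The 6 Cyp4a genes stand in 1 stretch of 323 kb on chromosome 4, in the order Cyp4a12a, Cyp4a12b, Cyp4a14, Cyp4a10, Cyp4a31 and Cyp4a32. The 2 abundant genes in its middle are 22127 bases apart and are transcribed away from each other.

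The Cyp4f genes lay between 34.3 and 122 TPM in all 6 livers. Cyp4f15 (chromosome 17, 32685598 to 32703352, plus strand) had 89.3, 115 and 111 TPM in the knockout livers and 122, 66.3 and 105 TPM in wild type (log2 0.14, SE 0.23, limma adjusted p 0.91). The knockout values fell inside the wild type range, and without wild type replicate 2 the log2 difference was -0.11. Cyp4f14 (chromosome 17, 32905070 to 32917351, minus strand), a liver leukotriene B4 hydroxylase, had 34.9, 53.1 and 69.7 TPM in the knockout and 43.3, 41 and 86.8 TPM in wild type. Its highest library was wild type replicate 3 and its lowest knockout replicate 1, and the groups overlapped widely (log2 -0.08, SE 0.34, limma adjusted p 0.971). The sign of the Cyp4f14 difference turned when single libraries were left out: it was log2 0.18 on leaving out knockout replicate 1, and 0.26 on leaving out wild type replicate 3. The 95% interval of Cyp4f14, from -0.87 to 0.70, was the widest of the 8.

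Cyp4f13 (chromosome 17, 32924688 to 32947415, minus strand), 7336 bases from Cyp4f14, was steady in all livers. It had 37.8, 36.7 and 35 TPM in the knockout and 34.7, 34.3 and 38.1 TPM in wild type. The highest library was 1.11 times the lowest, a smaller range than that of all but 0.855% of 8073 genes with a mean of at least 5 TPM and a value in every library, whose median range was 1.48-fold. The log2 difference was 0.03 (SE 0.11; limma adjusted p 0.966), with a 95% interval from -0.23 to 0.29, or 0.855-fold to 1.23-fold. Cyp4f14, its direct neighbour among the 10, had a 2.48-fold range, wider than that of 92.4% of the same genes.

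Cyp4v3 (chromosome 8, 45305802 to 45333196, minus strand), the mouse counterpart of the human gene CYP4V2 that is mutated in Bietti crystalline dystrophy of the retina, was the third most abundant of the 10. It had 163, 191 and 212 TPM in the knockout livers and 179, 146 and 193 TPM in wild type, a log2 difference of 0.13 (SE 0.16; limma adjusted p 0.871) with overlapping groups. Without wild type replicate 2 the difference was 0.02.

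By mean level over all 6 livers the order was Cyp4a14 (1307 TPM), Cyp4a10 (899 TPM), Cyp4v3 (181 TPM), Cyp4f15 (102 TPM), Cyp4f14 (54.8 TPM), Cyp4f13 (36.1 TPM), Cyp4a32 (18.6 TPM) and Cyp4a31 (11.2 TPM). Each gene was above the next in 6 of 6 libraries, except that Cyp4f14 was above Cyp4f13 in 5 of 6. The ranges of neighbours in this order overlapped for Cyp4a14 and Cyp4a10, Cyp4f15 and Cyp4f14, Cyp4f14 and Cyp4f13, and Cyp4a32 and Cyp4a31, and they were apart for the other 3 neighbouring pairs.

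The Cyp4a genes outweighed the Cyp4f genes in every liver of both groups. The summed TPM of the 6 Cyp4a genes was 2072, 2624 and 2776 in the knockout and 2686, 1279 and 1977 in wild type, and that of the 3 Cyp4f genes was 162, 205 and 216 in the knockout and 200, 142 and 230 in wild type. The ratio of the sums was 12.8 in each of the 3 knockout livers and 13.5, 9.04 and 8.58 in wild type. Wild type replicate 1 was above the knockout livers and the other 2 wild type livers below them. The median log2 difference was 0.15 over the 4 tested Cyp4a genes, 2 above and 2 below 0, and 0.03 over the 3 Cyp4f genes, with 0 called in either subfamily. Within the abundant pair, Cyp4a14 was 1.51, 1.5 and 1.51 times as high as Cyp4a10 in the knockout and 1.36, 1.49 and 1.37 times in wild type, a ratio that was higher in every knockout liver by a small margin and was not tested.

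**Figure D3:**
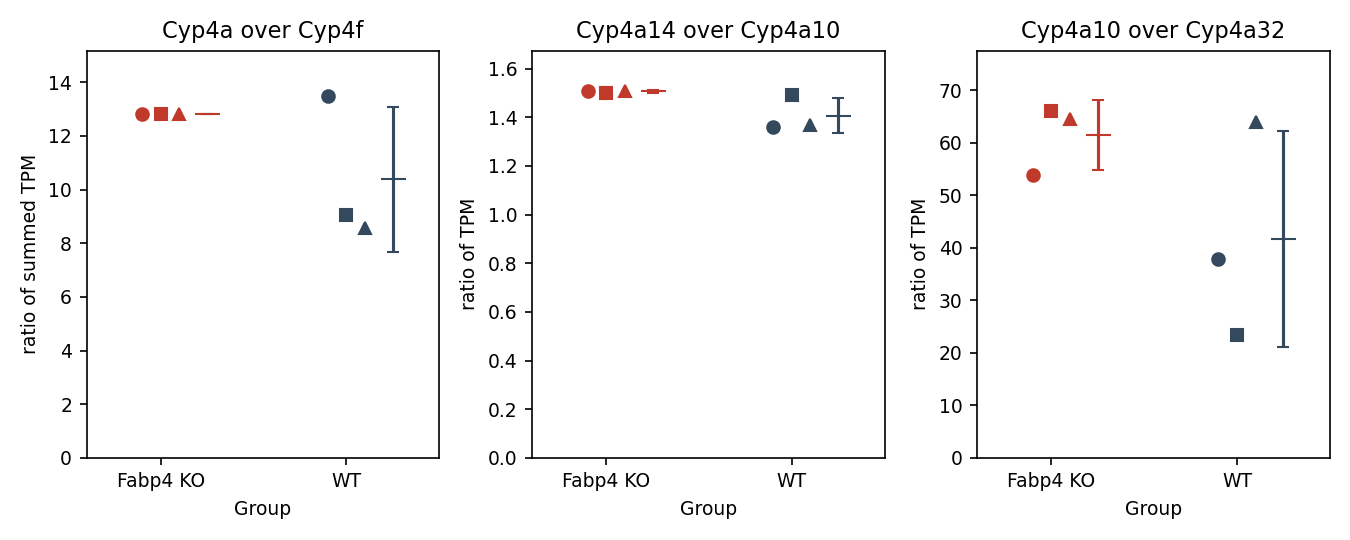
Ratios within each library, Fabp4 knockout (red) left of wild type (dark blue), with means and SD beside the points: summed TPM of Cyp4a over Cyp4f genes, Cyp4a14 over Cyp4a10, and Cyp4a10 over Cyp4a32. For the first ratio the knockout libraries are all at 12.8 and the wild type libraries spread from 8.58 to 13.5.

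Genes of 1 subfamily did not share 1 pattern over the 6 livers. As a description, likeness was taken as the mean absolute difference between 2 genes' log2(TPM + 1) values, each centred on its own mean over the libraries. It was 0.06 between Cyp4a14 and Cyp4a10 and 0.19 between Cyp4a31 and Cyp4a32, but 0.38 between Cyp4a14 and Cyp4a31 and 0.47 between Cyp4a14 and Cyp4a32. Cyp4f15 was nearer to Cyp4a10 (0.12) than to its own relatives Cyp4f13 (0.24) and Cyp4f14 (0.38). Of 8074 genes with a mean of at least 5 TPM, Cyp4a10 was the nearest to Cyp4a14, Cyp4f15 ranked 84 and Cyp4a32 ranked 7041. Wild type replicate 2 held the lowest value of 5 of the 8 tested genes (Cyp4a14, Cyp4a10, Cyp4f15, Cyp4v3 and, by a narrow margin, Cyp4f13), and it held the lowest value of 24.3% of all tested genes.

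**Figure D4:**
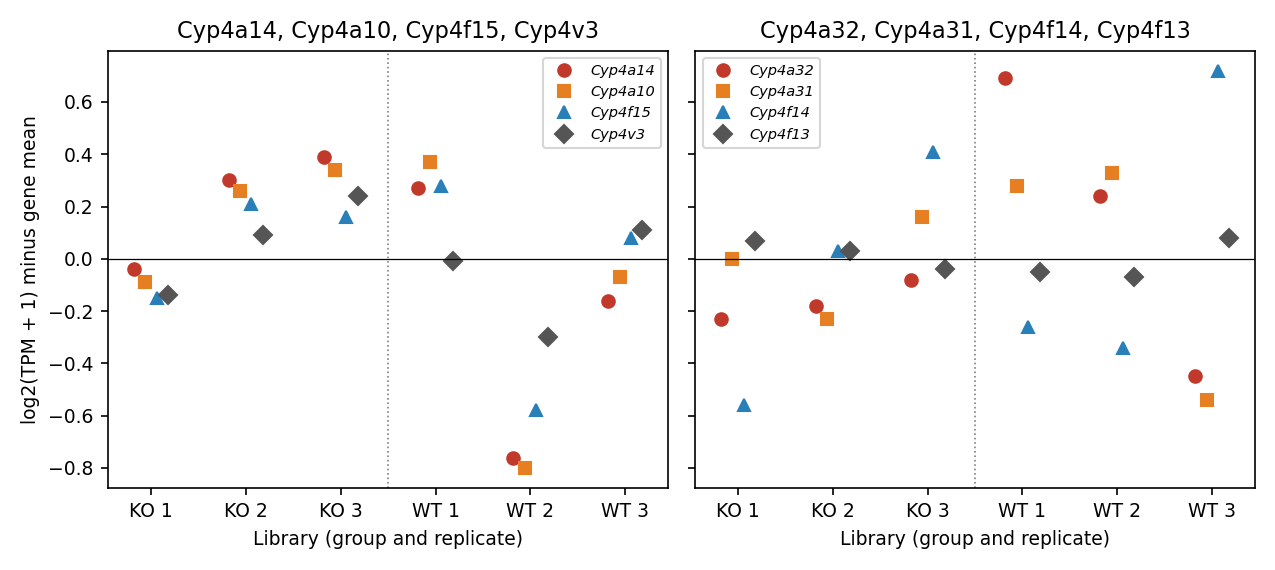
Centred log2(TPM + 1) in the 6 libraries (each gene's own mean taken off), for 4 Cyp4 genes a panel, with knockout libraries left of the dotted line and wild type libraries right of it. Cyp4a14 and Cyp4a10 follow each other and reach -0.76 and -0.80 in wild type replicate 2, whereas Cyp4a32 reaches 0.69 in wild type replicate 1 and Cyp4f14 0.72 in wild type replicate 3.

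Markers of other liver cells moved with the same library. The summed TPM of 9 macrophage markers was 394 to 950 in the knockout and 183 to 554 in wild type, and their mean centred log2 level was lowest in wild type replicate 2 (-0.94). All 9 were higher in the knockout on the estimate, 3 at an unadjusted p under 0.05 (against 5.12% of all tested genes), and 0 were called by limma. The 10 neutrophil markers summed to 15.8 to 20.6 TPM in the knockout and 20.9 to 50.1 TPM in wild type. The mean centred log2 level of the 4 tested was highest in wild type replicate 2 (0.71) and replicate 1 (0.60). Of these 4, Csf3r alone was highest in wild type replicate 1 (1.44 TPM, against 0.818 TPM in replicate 2). All 4 were lower on the estimate, 3 at an unadjusted p under 0.05 (against 2.91% of all tested genes), and 0 were called. Of the markers under the filter, Ly6g and Mpo had a value in wild type replicate 2 only, and Ngp in knockout replicates 1 and 2 only. Elane had a value in 4 libraries, Cxcr2 averaged 0.356 TPM in the knockout and 0.323 TPM in wild type, and Camp had no value. Endothelial markers (8 genes) summed to 182 to 213 TPM in the knockout and 121 to 167 TPM in wild type, with 8 of 8 higher on the estimate, 5 at an unadjusted p under 0.05, 6 wholly above the wild type values (against 8.94% of all tested genes) and 0 called. Stellate cell markers (9 genes) summed to 291 to 369 TPM in the knockout and 248 to 307 TPM in wild type, with 9 of 9 higher on the estimate (8 after quantile normalization), 2 at an unadjusted p under 0.05 and 0 called. Dcn made up most of the stellate sum, with 309, 228 and 242 TPM in the knockout and 250, 222 and 201 TPM in wild type. Lymphocyte markers (8 genes) summed to 8.61 to 12.6 TPM in the knockout and 6.15 to 12.4 TPM in wild type, with 5 of 7 tested higher on the estimate, 2 at an unadjusted p under 0.05 and 0 called. The mean centred level of each of these 3 lists was lowest in wild type replicate 2. The hepatocyte markers summed to 139942 to 141628 TPM in the knockout and 141843 to 143755 TPM in wild type. This sum was dominated by the most abundant secreted proteins, above all Alb, at 98738 TPM in all 6 libraries. That value is the maximum that all 6 columns share, so most of the sum could not vary and its steadiness is no measure of hepatocyte content. In whole liver, fewer cells of a type and less RNA per cell cannot be told apart, and the part of these shifts in the Cyp4 values was not tested.

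Outside the 10, the most abundant Cyp4 gene was Cyp4b1, at 19.5 TPM over all libraries, between Cyp4f13 and Cyp4a32. Of 10 such genes, 4 were tested and 0 called (median log2 difference 0.05, and -0.0032 after quantile normalization). Cyp4b1, next to Cyp4a32 on chromosome 4, had 20.5, 19.5 and 22 TPM in the knockout livers and 22.2, 17.1 and 15.5 TPM in wild type (log2 0.18, SE 0.15). Cyp4f17 averaged 4.08 ± 0.977 TPM in the knockout and 4.98 ± 0.396 TPM in wild type (SD, n = 3 each; log2 -0.25, SE 0.17), and Cyp4f16 averaged 3.05 ± 0.989 TPM in the knockout and 2.94 ± 0.496 TPM in wild type (log2 0.02, SE 0.22; -0.03 after quantile normalization). Cyp4f18, the leukotriene B4 hydroxylase of mouse neutrophils, had 1.41, 0.372 and 0.849 TPM in the knockout and 1.36, 0.412 and 0.547 TPM in wild type (log2 0.08, SE 0.28). Its highest values were in replicate 1 of either group. Cyp4f37 and Cyp4f39 were under the filter, and Cyp4a29, Cyp4a30b, Cyp4f40 and Cyp4x1 were listed without a value in all 6 libraries.

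PPARa had lower and its other targets had higher and lower estimates in the knockout, and none of them passed the threshold. Ppara itself had 55.2, 67.3 and 44.9 TPM in the knockout and 105, 101 and 66 TPM in wild type. Its knockout replicate 2 lay just above wild type replicate 3, so the groups overlapped, and its log2 difference of -0.68 (SE 0.22) was not called (limma adjusted p 0.542; unadjusted 0.0159). Its partners Rxra (log2 -0.29, SE 0.16), Rxrb (-0.25, SE 0.17) and Rxrg (-0.28, SE 0.16), the retinoid X receptors, did not pass either. Over all 12 genes of the receptor and its partners 0 were called, and the median difference was -0.07. Of 35 PPARa target genes outside the Cyp4 family, 34 were tested and 0 called, with 15 estimates above and 19 below 0 (14 and 20 after either further scaling) and a median of -0.02. In this list 1 gene was higher and 3 were lower at an unadjusted p under 0.05, against 5.12% and 2.91% of all tested genes.

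The targets with the smallest p-values went both ways. Cpt1a, which admits fatty acids to mitochondria, had 209, 218 and 216 TPM in the knockout and 385, 347 and 245 TPM in wild type, with no overlap (log2 -0.58, SE 0.18, limma adjusted p 0.536). Fabp1, the liver fatty acid-binding protein, lay above the wild type values in every knockout liver (log2 0.47, SE 0.20). In the list 3 genes had knockout values wholly above wild type and 3 wholly below, against 8.94% and 4.38% of all tested genes. None of these shifts passed the threshold.

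**Figure D5:**
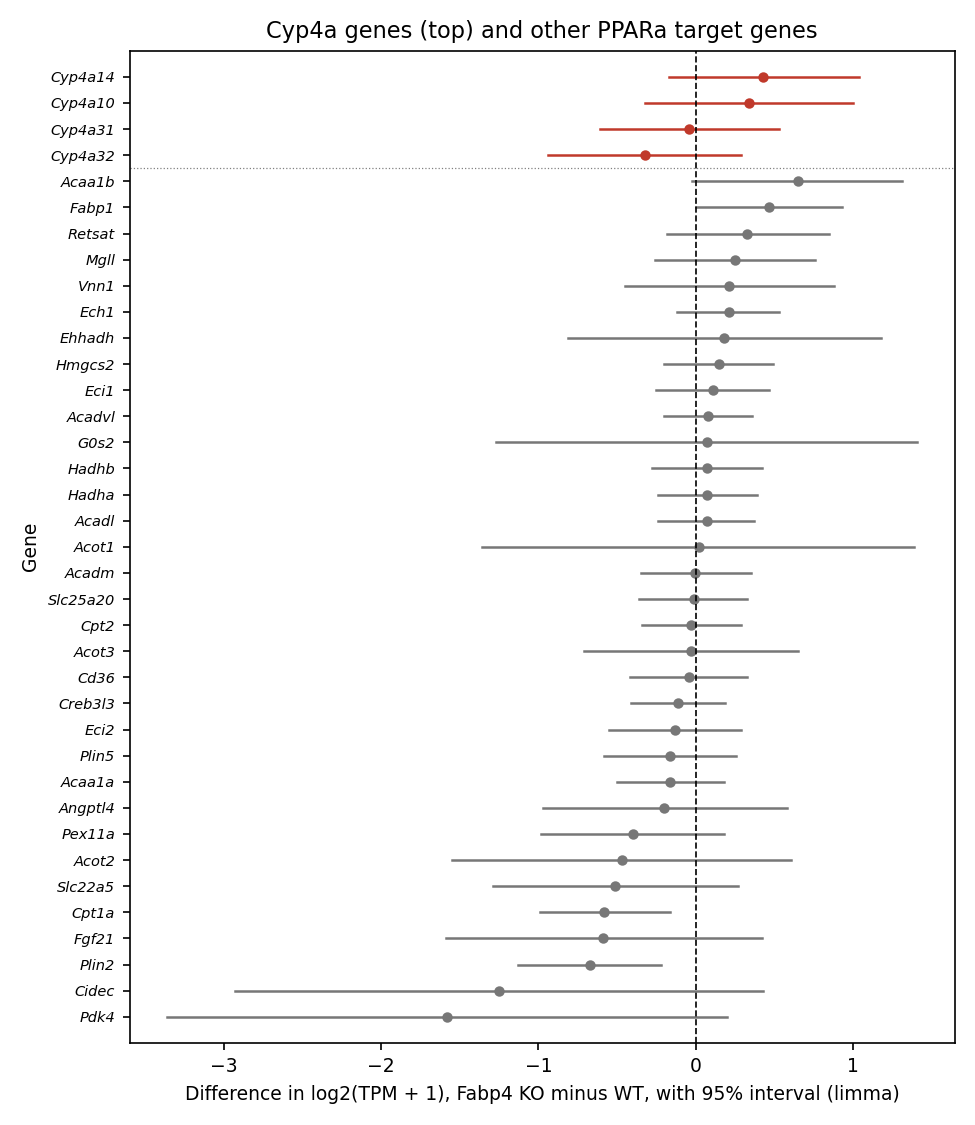
Difference in log2(TPM + 1), Fabp4 knockout minus wild type, with 95% intervals from limma, for the 4 tested Cyp4a genes (red, top) and all but 1 of the 34 other tested PPARa target genes (grey, sorted by the estimate). Estimates of the 34 fall on both sides of 0, with 15 above and 19 below (14 and 20 after either further scaling), and none passed the threshold over all genes.

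Downstream of the Cyp4 enzymes, the dehydrogenases and the peroxisomal enzymes gave 0 calls among 16 genes (median log2 difference 0.03, and -0.01 after median scaling). Adh1, the main hepatic alcohol dehydrogenase, which also oxidises omega-hydroxy fatty acids, had 2953, 4156 and 4087 TPM in the knockout and 2221, 1963 and 2647 TPM in wild type. Every knockout liver lay above every wild type liver (log2 0.71, SE 0.19, limma unadjusted p 0.00594, adjusted 0.522). Aldh3a2, the fatty aldehyde dehydrogenase that completes the step to the dicarboxylic acid, had 177, 241 and 231 TPM in the knockout and 211, 116 and 152 TPM in wild type (log2 0.46, SE 0.23, limma adjusted p 0.683; 0.26 without wild type replicate 2). Nudt7, a peroxisomal CoA diphosphatase, was lower in every knockout liver (log2 -0.46, SE 0.16; knockout 22.6 ± 2.48 TPM and wild type 31.8 ± 5.6 TPM, SD, n = 3 each) and was not called. The margin was narrow, with 25.5 TPM in knockout replicate 1 and 25.7 TPM in wild type replicate 1. Among the 16 genes, 1 had knockout values wholly above wild type and 2 wholly below, against 8.94% and 4.38% of all tested genes. The electron donors of P450 enzymes gave 0 calls among 4. Por, the P450 reductase, averaged 431 ± 56.5 TPM in the knockout and 476 ± 106 TPM in wild type (SD, n = 3 each; log2 -0.13, SE 0.18). The differences of the cytochrome b5 genes Cyb5b and Cyb5a were 0.37 (SE 0.19) and -0.21 (SE 0.15), and that of the b5 reductase gene Cyb5r3 was 0.18 (SE 0.18).

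Genes that make, sense or clear eicosanoids, the other substrates of the Cyp4f enzymes, were tested for 16 of 23 members, and 0 were called. Estimates were above 0 for 13 and below 0 for 3 (11 and 5 after quantile normalization; median 0.23), and 3 were higher at an unadjusted p under 0.05, which 5.12% of all tested genes were. They were Cyp2c44, an arachidonic acid epoxygenase, at 125, 199 and 246 TPM in the knockout and 118, 96.5 and 97.1 TPM in wild type (log2 0.82, SE 0.24, limma adjusted p 0.536), the epoxide hydrolase Ephx1 (log2 0.42, SE 0.15, adjusted 0.564) and the prostaglandin-inactivating Hpgd (log2 0.85, SE 0.33, adjusted 0.581). Hpgd was 0.50 without wild type replicate 2. Of the leukotriene genes in the list, Alox5, the first enzyme of leukotriene synthesis, was at most 0.171 TPM. Its activating protein Alox5ap averaged 5.06 ± 0.744 TPM in the knockout and 4.42 ± 2.12 TPM in wild type (SD, n = 3 each). Lta4h, which makes leukotriene B4, averaged 28.7 ± 1.72 TPM in the knockout and 26.6 ± 3.32 TPM in wild type (SD, n = 3 each), and the receptor gene Ltb4r1 lay between 0.339 and 0.866 TPM.

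Cyp4a transcripts are richest in pericentral hepatocytes, so genes of the lobule's zones were set beside them. Of 9 pericentral genes 8 were lower on the estimate (median -0.15; 9 and -0.19 after either further scaling), as were 6029 of all 14155 tested genes. None of the 9 was called, with Rhbg, an ammonium transporter, at log2 -0.73 (SE 0.24; limma adjusted p 0.542). Of 8 periportal genes 5 were higher on the estimate (median 0.14) and 0 were called. Sex-biased liver genes were split, with medians of 0.07 over 9 tested male-biased and 0.09 over 12 female-biased genes and 0 called in either list. At an unadjusted p under 0.05, 4 of the 12 female-biased genes were higher (Cyp2a4, log2 1.07; A1bg, 0.85; Cux2, 0.81; Hao2, 0.42) and the sulfotransferase gene Sult3a1 was lower (-1.63). Among the male-biased genes 1 was higher (Selenbp2, log2 0.89) and 1 lower (Cyp2d9, -0.74), where 5.12% of all tested genes were higher and 2.91% lower.

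Among 8067 other genes with a mean of at least 5 TPM, the 5 whose centred pattern over the 6 livers was nearest to that of Cyp4a14 were Mertk, a phagocytic receptor kinase (0.060), the interferon-induced Ifit3 (0.066), the chaperone partner Chordc1 (0.072), Aldh3a2 (0.073) and the ubiquitin protease Usp2 (0.074), where the median gene was at 0.35. All 5 were lowest in wild type replicate 2. The 4 nearest to Cyp4f14 were the sterol regulator Insig1 (0.082), the sterol carrier Stard4 (0.111), the retinal dehydrogenase Aldh1a1 (0.132) and the tryptophan-degrading Tdo2 (0.165), against a median of 0.42. All 4 were lowest in knockout replicate 1. Insig1 averaged 105 ± 40.5 TPM in the knockout and 107 ± 53.5 TPM in wild type (SD, n = 3 each). These likenesses describe 6 libraries and were not tested.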

How the data were processed

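RNA of flash-frozen liver, extracted with TRIzol, was sequenced on a HiSeq instrument, per the labels' protocols, and FastQC, Trimmomatic and the mm10 build are named in the submitters' processing notes. No aligner, counting tool, annotation or strand setting is named there. The authors called their columns TPM, per the file headers. What they deposited is log2 TPM, since values go down to -8.88 and the antilogarithms of a library add up to 983800 to 1018118. All 6 columns share a maximum of 16.59 and a median of 1.07, as quantile normalization leaves, so a shift of all genes could not be seen. Values were turned back into TPM, with blanks taken as 0.

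limma 3.58.1 in R 4.3.3 (two-sided, eBayes with trend, no covariates) was fitted to log2(TPM + 1) of 14155 genes with a mean of at least 0.5 TPM. The p-values measure the spread between 3 libraries per group, which the labels do not state to be separate mice. Data were also simulated for knockout against wild type (14155 genes, 5 sets of 200 changed genes). In them 56.8% of genes given a log2 change of 1 and 89.2% of genes given one of 2 were recovered. Genes were drawn independently of each other, and the 200 changed genes made the Benjamini-Hochberg adjustment milder. In the measured livers 1 gene was called, and the second smallest limma adjusted p was 0.183. Adh1 (log2 0.71, SE 0.19) and Sult3a1 (log2 -1.63, SE 0.44) were not called there, each with a limma adjusted p of 0.522. The recovered percentages are therefore no measure of how often a change of a Cyp4 gene would be called in these livers. The 10 genes and 16 gene lists (191 genes, all matched, 2 through another symbol or the gene number) were chosen with earlier results of these data known. Named genes are the 10, up to 4 of each list with the smallest p, and the nearest in pattern to Cyp4a14 and Cyp4f14; some genes that this rule names are not reported here. Genes outside this rule, among them Alox5, Alox5ap, Lta4h, Ltb4r1, Hsd3b5, Cyp3a16, Cyp2a4, Ly6g, Mpo and Camp, were picked with their values in view. So were Alb, Ngp, Elane and Cxcr2. The alternatives were 2 other pseudocounts, 2 other filters, 2 scalings, no trend, a replicate block and leaving out libraries. Same-numbered libraries of the 2 groups did not deviate together, and the number was not a term.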

Additional observations from a re-analysis of the deposited data

How the results depend on the processing

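None of the 8 tested Cyp4 genes and none of the listed genes was called by limma under any of the 15 alternatives. Leaving out 1 library at a time, the median ranged from 0.03 to 0.34 for Cyp4a and from -0.11 to 0.22 for Cyp4f. The log2 difference stayed above 0 for Cyp4a14 (0.16 to 0.68), Cyp4a10 (0.02 to 0.60) and Cyp4v3 (0.02 to 0.23) and below 0 for Cyp4a32 (-0.63 to -0.06) in all 15. Its sign turned on leaving out 1 library for Cyp4a31 (-0.33 to 0.11), Cyp4f14 (-0.31 to 0.26), Cyp4f15 (-0.11 to 0.32), Cyp4f16 (-0.10 to 0.24), Cyp4f18 (-0.12 to 0.31) and Por (-0.23 to 0.05). Without knockout replicate 1 and wild type replicate 2 together it was 0.10 for Cyp4a31, -0.02 for Cyp4f13 (0.01 to 0.08 without 1 library), -0.00049 for Cyp4f15, -0.26 for Cyp4f18 and -0.06 for Cyp4f16. After median scaling it was -0.0026 for Cyp4f13 and -0.02 for Cyp4f16, and after quantile normalization -0.03 for Cyp4f16; the cause was not tested.

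Over all genes the single gene called lower became 0 with a pseudocount of 5, without a filter and with the replicate block, and 0 to 2 lower and 0 to 2 higher were called when 1 library was left out. At an unadjusted p under 0.05, 725 genes were higher and 412 lower, 406 and 251 with a filter at 5 TPM, where fewer genes are tested, and 427 to 859 and 255 to 569 without 1 library. Median scaling gave 565 higher and 530 lower, and quantile normalization 570 and 537. The deviations of same-numbered libraries from their group means correlated at -0.261, -0.265 and -0.0494, and 0 of 6 libraries correlated best with their own number. The replicate block called 0 of the 8 Cyp4 genes. With 3 libraries per group and unknown depth, the 95% intervals of Cyp4a14 and Cyp4a10 leave room for a difference up to 1.04 and 1.0 on the log2 scale.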

Other observations

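Set against Cpt1a, a PPARa target picked after its values were seen, Cyp4a14 was higher in knockout livers. Its TPM was 5.89, 7.14 and 7.65 times that of Cpt1a in the knockout and 3.96, 2.14 and 4.63 times in wild type. The groups did not overlap, but Cpt1a itself was lower in every knockout liver than in every wild type liver, so the choice of Cpt1a enters this separation. Such ratios within a library do not depend on a scaling factor per library. Quantile normalization, which the columns look to have had, is not such a factor, so the ratios can depend on it. Relative to Aldh3a2, which stands next to the Cyp4 enzymes in omega-oxidation, the ratio was 6.97, 6.48 and 7.16 in the knockout and 7.24, 6.4 and 7.44 in wild type, and the groups overlapped. Relative to Acaa1b, a peroxisomal thiolase, it was 1.13, 1.46 and 1.84 in the knockout and 1.79, 1.88 and 1.41 in wild type. None of these ratios was tested, because the genes were chosen on their values.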
